A study of Mus musculus with 12 samples.

Results

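The proximal tubule is the nephron segment that lies directly downstream of the glomerulus. Its transcripts can reach a glomerular preparation on pieces of tubule, a route that was not tested here. The set described here holds 31 genes chosen by name for their known place in proximal tubule cells, from the phosphate carrier Slc34a1 to the protease Napsa. All 31 were found by symbol among the 26264 genes of both count tables, and all 31 passed the filter on low counts, as did 16612 genes in all. Of the 31, the genes Aqp1, Ass1 and Lrp2 are also known from other cells of the kidney.

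Glomeruli were enriched by perfusion with magnetic beads from 8-week-old male mice, either BALB/cAjcl (written Ajcl) or the related substrain BALB/cByJcl (written ByJcl), and their poly(A) RNA was sequenced in 12 libraries. Each substrain was taken untreated (baseline) and on Day 5 after 1 intravenous dose of adriamycin (ADR, doxorubicin, which injures podocytes in susceptible BALB/c mice) at 10 mg/kg, with 3 libraries per group. The sample titles name the substrain, the time point and the replicate but no batch. The labels do not say which animals each library came from, so p-values measure the spread between these libraries. Levels are given in CPM (counts scaled to a common library total), normalized by the trimmed mean of M values (TMM), and changes in log2 units with the standard error (SE) of the fit.

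Proximal tubule cells recover most of the filtered water, glucose, amino acids, phosphate and protein, secrete organic anions into the urine, and make glucose from lactate and amino acids. Megalin and cubilin (Lrp2, Cubn) take up filtered protein at the apical membrane. Most sodium-coupled carriers bring solutes into the cell, and organic anion carriers of the basolateral membrane feed secretion. HNF4A is a known transcription factor of this cell. Most of these transcripts are not known as products of glomerular cells.

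Promoters of 26 members were found in a RefSeq table of mouse promoters (build GRCm38.p6), which spans 250 bases before to 50 bases after each start. Slc7a13, Slc5a2, Ttc36, Slc5a12 and Napsa had no entry. The HNF4A spelling CAAAGTCCA, searched on both strands, stood in the promoter of 1 of 26 members (Slc3a1), in 0.555% of all 27025 genes with a promoter and in 2 of 33 other proximal tubule genes. The 2 shorter spellings that lie within it stood in 2 of the 26 each, AAAGTCCA in Slc3a1 and Akr1c21 (1.46% of all genes) and CAAAGTC in Slc34a1 and Slc3a1 (5% of all genes). Of 2 direct repeats of the same factor, AGGTCAAAG stood in Slc27a2 and Slc17a1 (0.488% of all genes) and TGACCTTTG in none of the 26 (0.544% of all genes). The spelling TTACGTCA, a cyclic AMP response element, stood in 1 of the 26 (Pck1) and in 0.581% of all genes, and the palindrome TGACGTCA in none of the 26 and in 2.03% of all genes. The box TATAAA stood in 7 of the 26 (Slc34a1, Kap, Miox, G6pc, Cyp2e1, Acsm2 and Slc3a1) and in 15.7% of all genes. These matches describe letters in a fixed window and not binding. The stretch of Slc3a1, which encodes the heavy subunit of cystine carriers, is shown because it was the 1 member promoter with the spelling CAAAGTCCA. It is written 5′ to 3′ on the strand of the gene with that spelling in capitals, matched GRCm39 once, and overlaps no exon in the GENCODE annotation of GRCm39.
Slc3a1, chr17:85335709-85335771, plus strand: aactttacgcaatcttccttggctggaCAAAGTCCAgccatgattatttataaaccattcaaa

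The 31 genes took between 0.170% and 2.00% of the counts of a library. At baseline the Ajcl libraries summed to 9248, 4540 and 14060 CPM over the set, a mean of 9283 ± 4760 (SD, n = 3), and the ByJcl libraries to 1892, 7422 and 5880 CPM, a mean of 5065 ± 2854 (SD, n = 3). On Day 5 the Ajcl libraries summed to 19868, 8126 and 5950 CPM, a mean of 11315 ± 7487 (SD, n = 3), and the ByJcl libraries to 1698, 3362 and 6170 CPM, a mean of 3743 ± 2260 (SD, n = 3). The groups overlapped in each comparison of sums. The highest library, Ajcl Day 5 replicate 1 at 19868 CPM, held 11.7 times the level of the lowest, ByJcl Day 5 replicate 1 at 1698 CPM. Within a group the highest library exceeded the lowest 3.10-fold in Ajcl baseline, 3.34-fold in Ajcl Day 5, 3.92-fold in ByJcl baseline and 3.63-fold in ByJcl Day 5. Without Ajcl Day 5 replicate 1 the ratio in Ajcl Day 5 was 1.37-fold. In bulk RNA, fewer tubule cells and less RNA per tubule cell cannot be told apart.

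**Figure D1:**
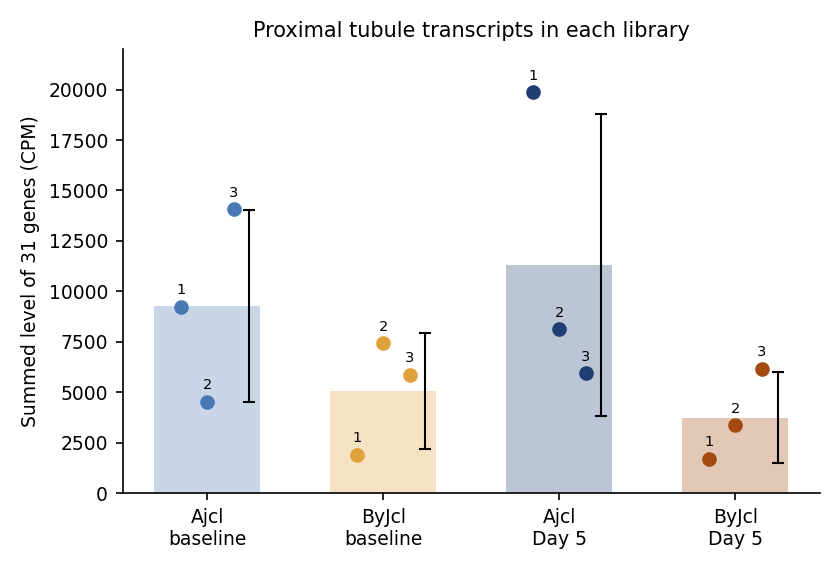
Summed level of the 31 proximal tubule genes in CPM (vertical axis) for each library, with its replicate number, in the 4 groups. Bars are group means and error bars are SD (n = 3). Ajcl Day 5 replicate 1, at 19868 CPM, stands above its own group, whose other libraries lie at 8126 and 5950 CPM.

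Ajcl Day 5 replicate 1 stood apart from the other libraries. It was the highest library of its group for 29 of 31 members, against 40.8% of all genes, and the highest of all 12 libraries for 25. The study left this library out of its main Day 5 comparison for its low ratio of podocyte to tubule markers and its raised tubule markers. It also reported results with this library included. The tubule markers include 3 of these members, so the library was kept here, with values without it beside the results it moves most. Without it, the mean sum of Ajcl Day 5 was 7038 ± 1538 CPM (SD, n = 2).

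The other groups were ordered in the same way gene by gene. ByJcl baseline replicate 1 was the lowest of its group for 31 of 31 members (35.3% of all genes), Ajcl baseline replicate 2 for 31 (32.7% of all genes), and ByJcl Day 5 replicate 1 for 28 (34.7% of all genes). ByJcl Day 5 replicate 3 was the highest of its group for 31 of 31 (28.4% of all genes), Ajcl baseline replicate 3 for 30 and ByJcl baseline replicate 2 for 27. Members therefore rose and fell together from library to library, whatever the group. The ratio of the highest to the lowest of 12 libraries had a median of 15.2 over the members and a range of 4.16 to 45.8. It exceeded 10 for 27 of 31 members, against 8.42% of the 15714 tested genes with a count in every library, whose median ratio was 2.02.

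**Figure D2:**
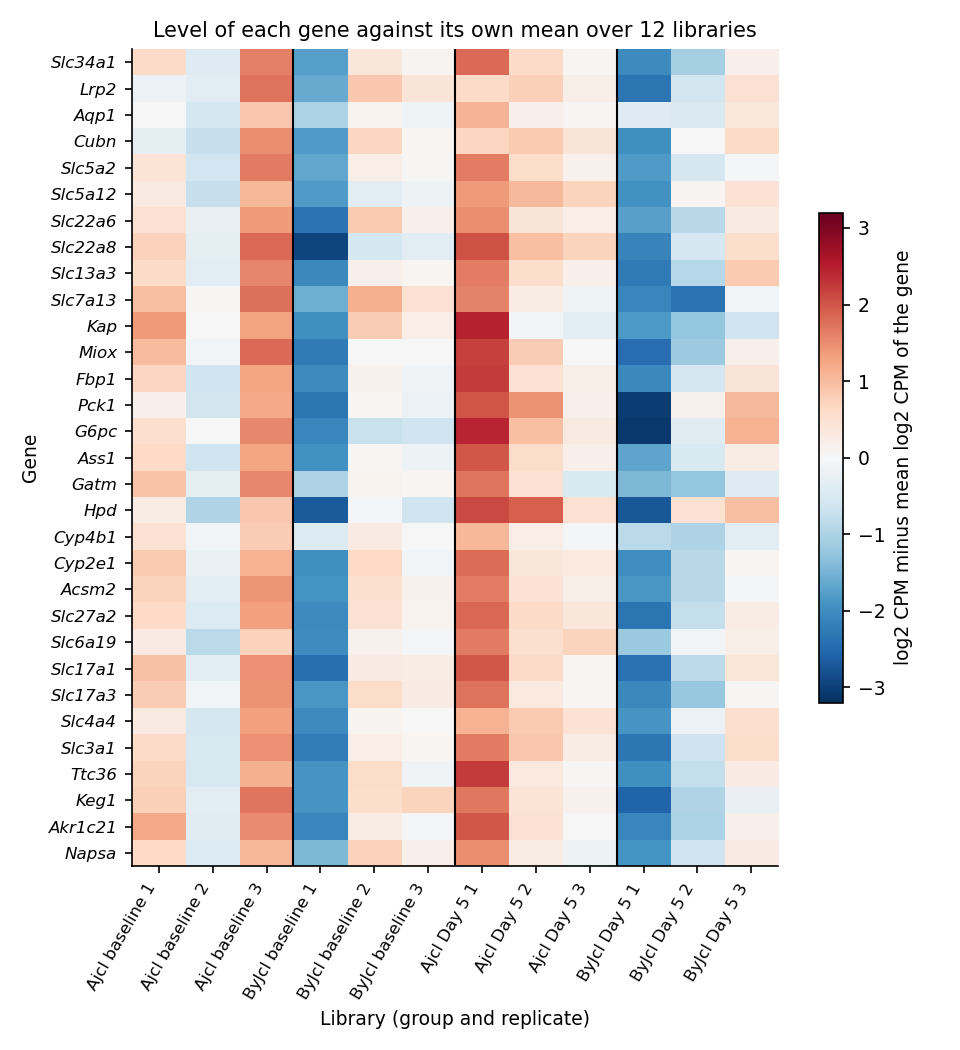
Log2 CPM of each of the 31 genes (rows) in each of 12 libraries (columns, by group and replicate) after subtraction of the mean of the gene. Red is above and blue below that mean. Whole columns share a colour: Ajcl Day 5 replicate 1 and Ajcl baseline replicate 3 are high, and ByJcl baseline replicate 1 and ByJcl Day 5 replicate 1 are low, for nearly every gene.

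Markers of other cells in the preparation were measured beside the members. Sums over 40 other proximal tubule genes spanned 9.91-fold over the 12 libraries (701 to 6951 CPM), 6 thick ascending limb genes 9.58-fold (232 to 2225 CPM), 8 collecting duct genes 24.6-fold (8.60 to 212 CPM) and 4 distal convoluted tubule genes 50.8-fold (11.4 to 581 CPM). All 4 sums were highest in Ajcl Day 5 replicate 1, the library in which the members were highest. Glomerular lists moved far less. The 10 podocyte genes spanned 2.15-fold (11141 to 23962 CPM), the 6 glomerular endothelial genes 2.01-fold and the 4 mesangial genes 1.60-fold. Podocyte genes were detected at these levels in every library, but in Ajcl Day 5 replicate 1 the 10 podocyte genes, at 12369 CPM, summed to less than the 31 members, at 19868 CPM, and the mesangial sum was at its lowest (1385 CPM). In the other 11 libraries the podocyte sum was the higher. A list of 6 immune genes, at 21.8 to 142 CPM, spanned 6.53-fold. Its mean sum was higher in ByJcl than in Ajcl, at 106 against 47.7 CPM at baseline and 94.3 against 39.7 CPM on Day 5. This difference in sums was not tested.

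Levels per kilobase of exon, averaged over 12 libraries, ordered the members from Kap at 1102 CPM per kilobase to Cubn at 2.83. Ass1 at 155, Pck1 at 135, Miox at 123, Cyp4b1 at 113 and Slc34a1 at 98.3 CPM per kilobase followed Kap in that mean. By group means the order differed. Kap was highest in each group and was followed by Ass1 in both Ajcl groups (by Pck1 in Ajcl Day 5 without replicate 1), by Cyp4b1 in ByJcl baseline and by Pck1 in ByJcl Day 5, and the lowest was Hpd at baseline and Cubn on Day 5 in both substrains. These are mean levels and their order was not tested. G6pc was not matched by symbol in GENCODE and was left out of this order. Of the 30 matched members, 9 overlap exons of a gene on the opposite strand and none overlaps one on the same strand. The libraries were strand-specific, but the strand setting of the counting is not given in the sources used here, so reads of such pairs (Slc34a1, Cubn, Slc5a2, Cyp4b1, Slc27a2, Slc3a1, Ttc36, Keg1 and Napsa) may not be separated.

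Lrp2 (megalin, chr2:69254682-69416409, minus strand) and Cubn (cubilin, chr2:13281149-13496624, minus strand) form the apical receptor complex for filtered protein. Lrp2 measured 174, 156 and 662 CPM in Ajcl baseline, 304, 336 and 227 CPM in Ajcl Day 5, 64.2, 360 and 265 CPM in ByJcl baseline, and 39.3, 132 and 276 CPM in ByJcl Day 5. Cubn measured 28.4, 20.9 and 96.3 CPM in Ajcl baseline, 55.7, 61.8 and 45.7 CPM in Ajcl Day 5, 9.90, 55.3 and 36.0 CPM in ByJcl baseline, and 8.86, 34.9 and 52.7 CPM in ByJcl Day 5. The groups of both receptors overlapped in every comparison of substrains and of time points. Unlike most members, neither was highest in Ajcl Day 5 replicate 1: both peaked in Ajcl baseline replicate 3.

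Among the sodium-coupled carriers, Slc34a1 (chr13:55546000-55563413, plus strand), which takes up phosphate, measured 725, 354 and 1435 CPM in Ajcl baseline and 1645, 720 and 489 CPM in Ajcl Day 5. In ByJcl it measured 139, 605 and 497 CPM at baseline and 114, 224 and 526 CPM on Day 5. The Ajcl and ByJcl libraries overlapped at both time points. Slc5a2 (SGLT2, the main apical glucose carrier, chr7:127864829-127871602, plus strand) measured 77.2, 37.4 and 179 CPM in Ajcl baseline, 17.9, 66.2 and 58.4 CPM in ByJcl baseline, 179, 85.4 and 62.5 CPM in Ajcl Day 5, and 16.2, 39.3 and 54.2 CPM in ByJcl Day 5. Here the substrains overlapped at baseline, and on Day 5 each Ajcl library lay above each ByJcl library. The other members of this role carry lactate (Slc5a12), dicarboxylates (Slc13a3), neutral amino acids (Slc6a19) and bicarbonate (Slc4a4), and their highest library held 9.83 to 15.1 times their lowest.

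Slc22a6 (OAT1, chr19:8595356-8605663, plus strand) and Slc22a8 (OAT3, chr19:8568476-8589541, plus strand) take organic anions from blood into the tubule cell. Slc22a6 measured 105, 63.8 and 193 CPM in Ajcl baseline, 14.7, 134 and 83.8 CPM in ByJcl baseline, 209, 99.7 and 87.0 CPM in Ajcl Day 5, and 22.5, 40.5 and 91.0 CPM in ByJcl Day 5. Slc22a8 measured 69.5, 33.7 and 148 CPM in Ajcl baseline, 5.46, 28.4 and 33.3 CPM in ByJcl baseline, 171, 81.4 and 69.3 CPM in Ajcl Day 5, and 9.45, 28.9 and 62.3 CPM in ByJcl Day 5. Slc22a6 overlapped between the substrains at both time points, and Slc22a8 did not overlap at either, with ByJcl below Ajcl. Slc17a1 and Slc17a3, apical carriers of organic anions and urate, spanned 20.9-fold and 13.9-fold over the 12 libraries.

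Aqp1 (chr6:55313068-55325540, plus strand), the water channel of the proximal tubule and thin descending limb, varied less than almost every other member. It measured 133, 90.9 and 245 CPM in Ajcl baseline, 286, 151 and 136 CPM in Ajcl Day 5, 65.9, 144 and 122 CPM in ByJcl baseline, and 99.7, 96.9 and 168 CPM in ByJcl Day 5. Its range was 4.34-fold. The narrowest range, 4.16-fold, belonged to Cyp4b1 (chr4:115476281-115504999, minus strand), a cytochrome P450 that was measured at 1101, 737 and 1380 CPM in Ajcl baseline, 581, 949 and 792 CPM in ByJcl baseline, 1639, 905 and 748 CPM in Ajcl Day 5, and 431, 394 and 613 CPM in ByJcl Day 5.

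Slc7a13 (chr4:19818725-19842218, plus strand), an apical cystine carrier of the last part of the proximal tubule, measured 51.8, 26.99 and 90.8 CPM in Ajcl baseline, 79.6, 31.2 and 23.95 CPM in Ajcl Day 5, 8.95, 59.0 and 37.3 CPM in ByJcl baseline, and 6.27, 5.19 and 25.1 CPM in ByJcl Day 5. Its 3 ByJcl Day 5 libraries included the 2 lowest of all 12. Slc3a1, the heavy subunit of cystine carriers, spanned 15.8-fold. Kap (kidney androgen-regulated protein, chr6:133826814-133830725, minus strand) is an abundant transcript of male mouse kidney. It measured 2200, 839 and 2080 CPM in Ajcl baseline and 4678, 806 and 672 CPM in Ajcl Day 5. In ByJcl it measured 217, 1492 and 981 CPM at baseline and 240, 358 and 550 CPM on Day 5. Kap alone made up between 8.92% and 23.8% of the summed level of the set.

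Fbp1, Pck1 and G6pc encode enzymes of gluconeogenesis, of which the proximal tubule is the renal site. G6pc, whose product releases free glucose, had the widest range of all members, at 45.8-fold. It measured 119, 80.5 and 237 CPM in Ajcl baseline, 437, 157 and 99.3 CPM in Ajcl Day 5, 19.1, 49.6 and 52.4 CPM in ByJcl baseline, and 9.54, 61.9 and 176 CPM in ByJcl Day 5. Pck1 (chr2:172994744-173001066, plus strand) measured 392.1, 231 and 801 CPM in Ajcl baseline, 1394, 936 and 391 CPM in Ajcl Day 5, 68.3, 358 and 306 CPM in ByJcl baseline, and 42.3, 381 and 710 CPM in ByJcl Day 5. In both genes the ByJcl Day 5 libraries spread on either side of the ByJcl baseline libraries. Fbp1 spanned 19.9-fold.

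Hpd (4-hydroxyphenylpyruvate dioxygenase of tyrosine breakdown, chr5:123309870-123320817, minus strand) was counted far less than Ass1 or Pck1 per kilobase, at a mean of 3.75 CPM per kilobase. It measured 7.62, 3.33 and 11.8 CPM in Ajcl baseline, 28.2, 24.3 and 9.14 CPM in Ajcl Day 5, 1.01, 6.29 and 4.19 CPM in ByJcl baseline, and 0.985, 9.05 and 12.7 CPM in ByJcl Day 5. Miox (myo-inositol oxygenase, chr15:89218601-89221218, plus strand) measured 276, 129 and 486 CPM in Ajcl baseline, 28.5, 136 and 136 CPM in ByJcl baseline, 631, 241 and 136 CPM in Ajcl Day 5, and 25.3, 61.3 and 153 CPM in ByJcl Day 5. Hpd and Miox spanned 28.6-fold and 24.9-fold. Ass1, of arginine synthesis, and Gatm, of creatine synthesis, spanned 15.2-fold and 8.88-fold.

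At baseline, all 31 members were lower in ByJcl than in Ajcl, with a median log2 fold change of -0.94 (range -1.90 to -0.47), against a median of -0.02 over all 16612 genes. None passed the test (edgeR quasi-likelihood test, Benjamini-Hochberg adjusted p of 0.88 to 0.909), and 0.114% of all genes did. Unadjusted p was under 0.05 for 1 member with edgeR (5.23% of all genes) and for 2 with DESeq2 (6.36% of all genes), which also called none, so these counts lay near the share of all genes. The largest difference was that of Slc22a8, at -1.90 ± 0.77 (SE, edgeR adjusted p = 0.88), and the smallest that of Cyp4b1, at -0.47 ± 0.32 (SE, edgeR adjusted p = 0.88). The 2 members whose libraries did not overlap were Slc22a8 and G6pc (log2 fold change -1.85 ± 0.85), and 6.5% of all genes were lower in ByJcl without overlap. Napsa, a lysosomal protease, differed by -0.48 ± 0.63. Mean sums of the other nephron lists were also lower in ByJcl than in Ajcl at baseline. They were 1741 against 3183 CPM for the 40 other proximal tubule genes and 503 against 1149 CPM for thick ascending limb. For distal convoluted tubule they were 56.6 against 252 CPM, and for collecting duct 53.2 against 107 CPM. These sums were not tested.

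On Day 5 all 31 were again lower in ByJcl, with a median log2 fold change of -1.58 (range -2.42 to -0.65) against -0.01 over all genes. No member passed with edgeR, the smallest adjusted p being 0.112, and 0.433% of all genes passed. Unadjusted p was under 0.05 for 18 members and for 18.3% of all genes. The largest differences were those of Kap, at -2.42 ± 0.81 (SE, edgeR adjusted p = 0.163), and Miox, at -2.07 ± 0.79 (SE, edgeR adjusted p = 0.202), and the smallest were those of Cubn, at -0.76 ± 0.71, and Aqp1, at -0.65 ± 0.41. DESeq2 called 1 member, Cyp4b1 (log2 fold change -1.19, DESeq2 adjusted p = 0.0107), where it called 5.92% of all genes. Without overlap between the substrains were 11 members (Slc5a2, Slc5a12, Slc22a8, Kap, Cyp4b1, Cyp2e1, Acsm2, Slc27a2, Slc6a19, Slc17a3 and Keg1), all lower in ByJcl, against 9.43% of all genes.

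The size of the Day 5 difference rested on Ajcl Day 5 replicate 1, although its sign did not. Without that library all 31 members were still lower in ByJcl, with a median log2 fold change of -0.94 (range -1.25 to -0.23). Unadjusted p was then under 0.05 for 1 member, against 14% of all genes, and no member was called, against 0.165% of all genes. Kap moved from -2.42 to -0.94, Miox from -2.07 to -1.22 and Aqp1 from -0.65 to -0.23, and the largest difference was then that of Keg1, at -1.25. Since that library was the lowest of its group for no member, the 11 members without overlap were the same without it. Leaving out ByJcl Day 5 replicate 3 gave a median of -2.34, and leaving out Ajcl Day 5 replicate 3 gave 2 calls, Gatm (-2.18, edgeR adjusted p = 0.0444) and Cyp4b1 (-1.41, edgeR adjusted p = 0.037), where 4.68% of all genes were called, and neither was called otherwise with edgeR. The baseline median was -0.38 without Ajcl baseline replicate 3 and -0.47 without ByJcl baseline replicate 1. The other nephron segments moved with the members: all 40 other proximal tubule genes, all 6 thick ascending limb, all 4 distal convoluted tubule and all 8 collecting duct genes were lower in ByJcl on Day 5, with none called. The same held without Ajcl Day 5 replicate 1, except that Odc1, of the 40, was higher at 0.09. These values are not adjusted for tubule level, and the same comparison with tubule level as a covariate is given below. How far the amount of carried tubule sets the values was not tested.

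**Figure D3:**
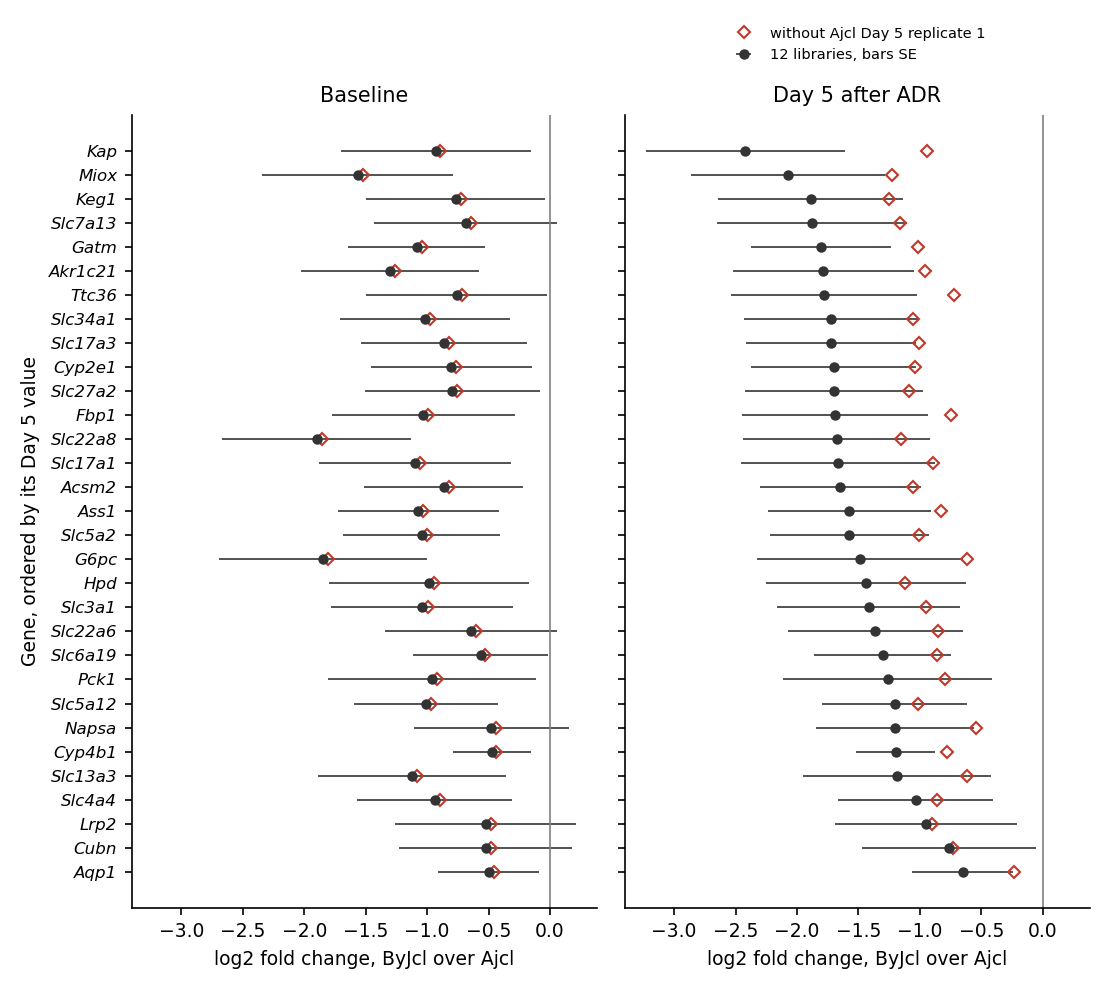
Log2 fold change of ByJcl over Ajcl (horizontal axis) for the 31 genes at baseline and on Day 5, ordered by the Day 5 value. Filled points are the fit of 12 libraries with SE bars and open diamonds the fit without Ajcl Day 5 replicate 1. Every point lies below 0, and on Day 5 the diamonds lie nearer to 0 than the points.

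ADR was followed by no change of the members that passed the test in either substrain. In Ajcl, 27 of 31 were higher on Day 5 and 4 lower, with a median log2 fold change of 0.25, no call and edgeR adjusted p from 0.693 to 0.995, while 0.325% of all genes were called. Without Ajcl Day 5 replicate 1, 6 were higher and 25 lower, with a median of -0.35, and without Ajcl baseline replicate 2 the median was -0.11. It was 0.83 without Ajcl baseline replicate 3 and 0.50 without Ajcl Day 5 replicate 3. In ByJcl, 10 were higher and 21 lower, with a median of -0.38, no call and a smallest edgeR adjusted p of 0.227, while 7.21% of all genes were called. That median was 0.02 without ByJcl baseline replicate 2, -0.01 without ByJcl Day 5 replicate 1, -0.79 without ByJcl baseline replicate 1 and -1.18 without ByJcl Day 5 replicate 3. No member had Day 5 and baseline libraries without overlap in either substrain, against 13.3% of all genes in Ajcl and 33.1% in ByJcl, in either direction. The highest and lowest changes in Ajcl were those of Hpd, at 1.44 ± 0.81, and Slc7a13, at -0.33 ± 0.74. Without Ajcl Day 5 replicate 1 these were 1.16 and -1.01, and the lowest was that of Kap, at -1.19. In ByJcl they were those of G6pc, at 1.03 ± 0.83, and Slc7a13, at -1.52 ± 0.76. Without ByJcl Day 5 replicate 3 these were -0.23 and -2.69, so the direction of G6pc rested on that library, and Slc7a13 was at -0.93 without ByJcl baseline replicate 2.

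By role, the 3 gluconeogenesis genes were higher on Day 5 averaged over both substrains (median log2 fold change 0.78) and the 6 enzymes of fatty acid, acyl and xenobiotic metabolism lower (median -0.19), with none called. Without Ajcl Day 5 replicate 1, 2 of the 3 gluconeogenesis genes were higher and Fbp1 was lower, at -0.14 (median of the 3 0.44), and the 6 enzymes were lower at a median of -0.53. Over the whole set in that average, 14 members were higher and 17 lower on Day 5, with a median of -0.03 and no call, where 9.63% of all genes were called. Without Ajcl Day 5 replicate 1, 9 were higher and 22 lower, with a median of -0.40 and no call. Hpd, at 1.21 ± 0.58 (SE, edgeR adjusted p = 0.227), and Slc7a13, at -0.93 ± 0.53 (SE, edgeR adjusted p = 0.322), stood at the ends, and also without that library, at 1.07 and -1.27. The difference between the ADR responses of the substrains was not called for any member or for any of the 16612 genes (0% called, unadjusted p under 0.05 for 801 genes and for 0 members with edgeR, while DESeq2 called 7 genes and 0 members). Its median over the members was -0.56, and -0.05 without Ajcl Day 5 replicate 1. Baseline and Day 5 counts lie in separate tables, so an effect of table processing and an effect of ADR cannot be told apart.

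To compare members at the same amount of tubule RNA, the mean log2 CPM of the 40 other proximal tubule genes, none of them a member, was added to the model as a covariate. This fit was chosen after seeing the data. The 40-gene level ran from 0.288 times its mean in ByJcl Day 5 replicate 1 to 3.05 times in Ajcl Day 5 replicate 1. The slope of log2 level on it passed the test for 31 of 31 members (edgeR adjusted p from 4.03e-07 to 0.00457), and for 6.92% of all genes. A slope of 1 means that a member changes by the same factor as the mean of the 40 genes. Among those 40 genes themselves the slope passed for 36 (median slope 1.08, range 0.03 to 1.34). The median slope was 1.11 and 28 of 31 lay between 0.8 and 1.4. Cyp4b1 at 0.41 ± 0.08 (SE) and Aqp1 at 0.58 ± 0.08 (SE) were the lowest, followed by Gatm at 0.78 ± 0.12 (SE), and Pck1 at 1.34 ± 0.18 (SE) was the highest. The slope also passed for 8 of 8 collecting duct genes (median slope 1.14), 5 of 6 thick ascending limb genes (median 0.84) and 3 of 4 distal convoluted tubule genes (median 1.24), so it was not particular to the members. It passed for none of the 10 podocyte, 6 glomerular endothelial and 4 mesangial genes.

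**Figure D4:**
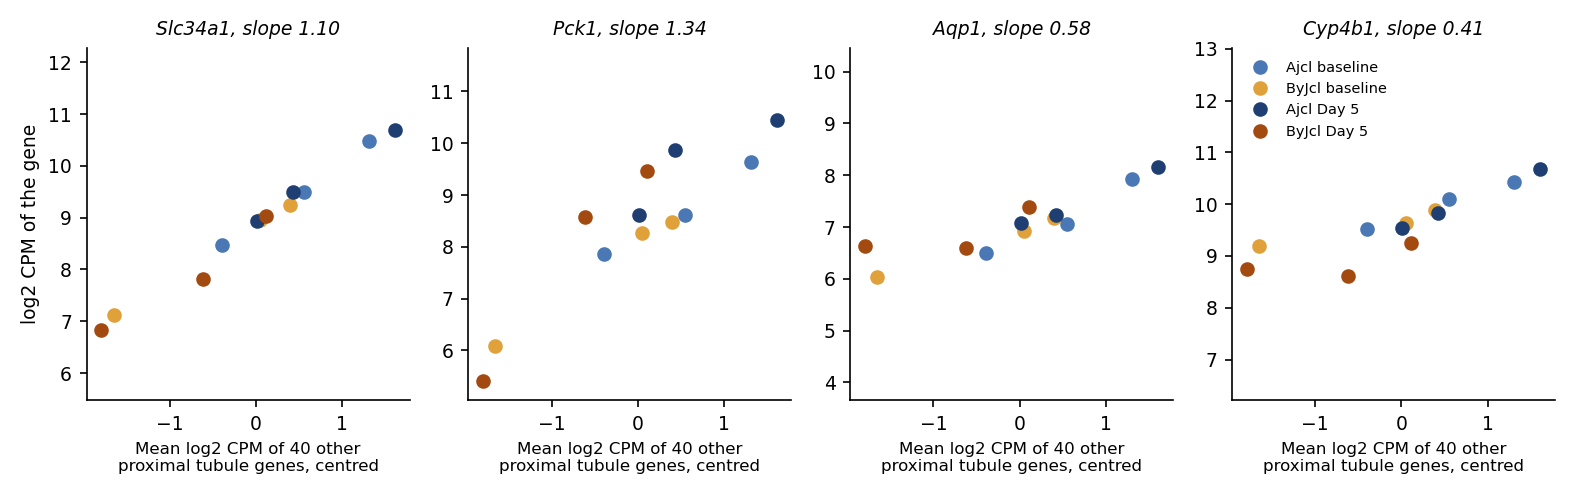
Log2 CPM of Slc34a1, Pck1, Aqp1 and Cyp4b1 (vertical axes, each spanning the same number of log2 units) against the centred mean log2 CPM of 40 other proximal tubule genes (horizontal axis), one point per library, coloured by group. Slc34a1 follows a slope of 1.10 and Pck1 of 1.34, while Aqp1 and Cyp4b1 rise less steeply, with slopes of 0.58 and 0.41.

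With the tubule level held equal, the substrain difference of the members was small. The covariate is made of genes of the same cell type, so this fit also removes any difference that all tubule genes share. At baseline the median log2 fold change was -0.08, with 11 members higher and 20 lower in ByJcl and none called (0.114% of all genes called). On Day 5 it was -0.06, with 13 higher and 18 lower and none called (0.157% of all genes called). Unadjusted p with edgeR was under 0.05 for 4 members and 710 of 16612 genes at baseline, and for 1 member and 1652 genes on Day 5. Slc22a8 kept the largest baseline value, at -0.90 ± 0.21 (SE, edgeR adjusted p = 0.267), which passed with DESeq2 at the same covariate (-0.87, DESeq2 adjusted p = 0.0306, 0.554% of all genes called). The difference between substrains in the ADR response passed the test for no member in this fit, where 0% of all genes were called (unadjusted p under 0.05 for 937 genes and for 1 member).

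Relative to the other tubule genes, 8 members changed after ADR when both substrains were averaged, where 13% of all genes were called. Hpd rose by 1.34 ± 0.27 (SE, edgeR adjusted p = 0.00625), Slc5a12 by 0.69 ± 0.18 (SE, edgeR adjusted p = 0.0238), Slc6a19 by 0.68 ± 0.13 (SE, edgeR adjusted p = 0.00475) and Slc22a8 by 0.64 ± 0.14 (SE, edgeR adjusted p = 0.0101). Ass1 rose by 0.35 ± 0.08 (SE, edgeR adjusted p = 0.0164) and Fbp1 by 0.34 ± 0.10 (SE, edgeR adjusted p = 0.035). Slc7a13 changed by -0.79 ± 0.21 (SE, edgeR adjusted p = 0.0248) and Keg1, a gene of the glycine acyltransferase family, by -0.41 ± 0.11 (SE, edgeR adjusted p = 0.0352). At 8 of 31 the share of members called lay above that of all genes, but the members were not drawn at random and the shares were not compared by a test. Within ByJcl 4 members were called (Slc22a8, Ass1, Hpd and Keg1), where 9.52% of all genes were called, and within Ajcl none was (0.536% of all genes called). The ByJcl count rested on single libraries, and the share of all genes called moved as well. It was 0 without ByJcl Day 5 replicate 3 (6.91% of all genes called). A count of 1 was left without Ajcl baseline replicate 2 (7.26%), ByJcl baseline replicate 1 (3.69%) or ByJcl baseline replicate 3 (5.86%). A count of 2 was left without Ajcl baseline replicate 3 (8.04%), ByJcl baseline replicate 2 (4.89%) or ByJcl Day 5 replicate 2 (3.89%). The count was 7 without ByJcl Day 5 replicate 1 (8.28%) and 9 without Ajcl Day 5 replicate 1 (13.7%). That the substrains differ is not shown by this, since the difference itself was called for no member.

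Levels relative to the 40 genes are differences of log2 CPM and show how the 8 changes were spread over libraries. Slc6a19 lay at 0.75, 0.56 and 0.47 in Ajcl baseline and at 1.08, 1.12 and 1.74 in Ajcl Day 5, and at 0.68, 0.78 and 0.94 in ByJcl baseline and at 1.66, 1.58 and 1.10 in ByJcl Day 5. Ass1 lay at 4.39, 4.08 and 4.25 in Ajcl baseline, 4.67, 4.47 and 4.46 in Ajcl Day 5, 4.01, 3.96 and 4.09 in ByJcl baseline, and 4.41, 4.43 and 4.44 in ByJcl Day 5. In both genes every Day 5 library lay above every baseline library of its substrain, as in 0.837% of all genes on this scale. Slc7a13 was the reverse case, at 0.65, 0.65 and 0.70 in Ajcl baseline, 0.21, 0.04 and 0.08 in Ajcl Day 5, 0.32, 0.99 and 0.68 in ByJcl baseline, and -0.04, -1.49 and 0.04 in ByJcl Day 5. Each of its Day 5 libraries lay below each baseline library of its substrain, as in 0.108% of all genes. These 3 members were among those called in the same comparison, so the lack of overlap adds no separate support.

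Hpd lay between -2.35 and -2.11 in Ajcl baseline and between -1.31 and -0.32 in Ajcl Day 5. In ByJcl it lay at -2.77, -2.23 and -2.47 at baseline and at -2.66, -0.69 and -0.94 on Day 5, so that ByJcl Day 5 replicate 1 remained among the baseline libraries. Slc22a8 lay at -0.38, -0.06 and 0.51 in ByJcl baseline and at 0.54, 0.98 and 1.35 in ByJcl Day 5, while in Ajcl its Day 5 libraries, at 1.31, 1.42 and 1.61, overlapped baseline at 1.07, 0.98 and 1.402. The largest ADR change within ByJcl that was called was that of Hpd, at 1.36 ± 0.39 (SE, edgeR adjusted p = 0.0444), and Slc22a8 changed there by 1.00 ± 0.20 (SE, edgeR adjusted p = 0.00874). The call of Hpd within ByJcl was lost without any 1 of the 3 Ajcl baseline libraries, the 3 ByJcl baseline libraries, or ByJcl Day 5 replicate 2 or 3, and that of Slc22a8 without ByJcl baseline replicate 1 or ByJcl Day 5 replicate 3. Over single libraries left out, the change in ByJcl ranged from 1.02 to 1.65 for Hpd and from 0.86 to 1.23 for Slc22a8.

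**Figure D5:**
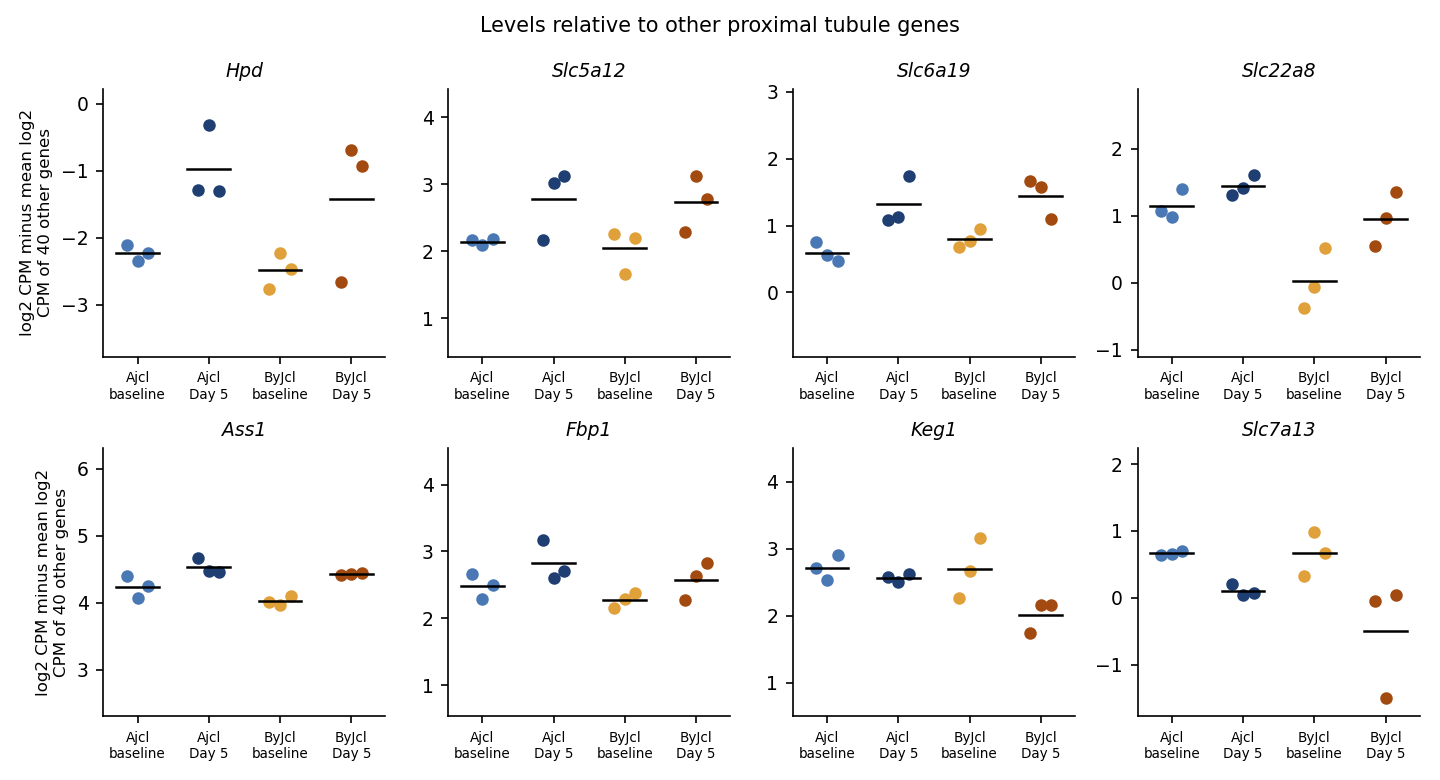
Log2 CPM minus the mean log2 CPM of 40 other proximal tubule genes (vertical axes, each spanning the same number of log2 units) for the 8 members called after ADR in the fit with tubule covariate. Points are libraries and lines group means. Slc6a19 and Ass1 lie higher, and Slc7a13 lower, in every Day 5 library than in every baseline library of the same substrain.

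These calls depended on which libraries entered. Over 17 alternatives to the covariate fit, all 8 members kept their direction in each, and Hpd, Slc6a19 and Slc22a8 were called in 17 of 17. Slc7a13 was called in 15, Ass1 in 13, Slc5a12 in 10, and Fbp1 and Keg1 in 8. Without Ajcl Day 5 replicate 1 the covariate fit called 13 members averaged over substrains (10 higher and 3 lower, 13.6% of all genes called) and 9 in ByJcl (13.7% of all genes called). The members added were Pck1, Slc4a4, Cubn and Slc3a1, which were higher, and Kap and Cyp4b1, which were lower, while Keg1 was lost. Leaving out Ajcl baseline replicate 2 gave 3 calls (7.21% of all genes called), ByJcl baseline replicate 2 gave 4 (8.7%), and ByJcl Day 5 replicate 2 or replicate 3 gave 5 (8.28% and 11.8%). Of the 40 covariate genes, 5 were called higher and 3 lower in the same fit, so the yardstick was itself not free of change. Without those 8 covariate genes, Hpd, Slc6a19, Slc22a8, Slc5a12, Slc7a13 and Keg1 were called, where 12.7% of all genes were.

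Other gene lists give the setting of these values. Of 6 tested proximal tubule injury genes 4 were higher and 2 lower after ADR averaged over substrains, with none called. Relative to the tubule genes 1 of the 6 was called, where 13% of all genes were: Havcr1, a marker of tubule injury (1.06, edgeR adjusted p = 0.0434, and 0.98 with adjusted p = 0.0905 without Ajcl Day 5 replicate 1). It was counted at 0.172 to 2.35 CPM. Its change in that fit was 2.02 in ByJcl and 0.11 in Ajcl, and the difference between these was not called (edgeR adjusted p = 0.714). The 5 members known to depend on androgen (Kap, Akr1c21, Slc7a13, Cyp4b1 and Cyp2e1) were all lower on Day 5 averaged over substrains, with a median log2 fold change of -0.33, none of them called, and of -0.54 without Ajcl Day 5 replicate 1. In Ajcl 4 of the 5 were higher (Kap at 0.27, Akr1c21 at 0.11, Cyp4b1 at 0.03 and Cyp2e1 at 0.31) and Slc7a13 lower, and all 5 were lower there without that library (median -0.69), as they were in ByJcl with all libraries (median -0.69). Averaged over both substrains, 8 of 10 podocyte genes were called lower and 1 higher, at a median of -0.76.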

How the data were processed

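Glomerular RNA was measured in 12 libraries (3 per group). The authors trimmed reads with Trimmomatic, checked them with FastQC, aligned them to GRCm39 with STAR and deposited whole-number counts per gene from featureCounts, in 1 table for baseline and 1 for Day 5. The annotation and the strand setting are not given in the sources used here. Low counts were even in 77.1% to 82.9% of cases, so whether 1 count is a fragment or a read of a pair is not settled. Totals ran from 42198416 to 54687045 counts, and TMM factors from 0.967 to 1.05.

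All 12 libraries entered 1 edgeR 4.0.16 quasi-likelihood fit (R 4.3.3, group means, 8 residual degrees of freedom, filterByExpr, 16612 genes), with Benjamini-Hochberg adjustment over all genes and calls at 0.05. Ajcl Day 5 replicate 1, which the study left out, was kept because it was left out for markers that include members. CPM are TMM-normalized, and log2 CPM used a prior count of 2. The covariate fit, chosen after seeing the data, added the mean log2 CPM of 40 other proximal tubule genes. DESeq2 1.42.0, other scalings and filters, the replicate number as a block, and leaving out each library were alternatives. Both fits were tested on simulated data with known changes. Changes of 1 log2 unit were recovered at 91% without and 72% with the covariate. The simulated tubule level was drawn without regard to group, so a level that differs between groups was not covered. Replicates of a group differed beyond sampling noise in every pair.

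The members and lists were chosen with earlier results of these data known. Genes named were 8 set markers (Slc34a1, Lrp2, Cubn, Aqp1, Slc5a2, Slc22a6, Slc7a13 and Kap), members called in a comparison, the 2 highest and 2 lowest changes of each comparison, and the members of widest and narrowest range. Coordinates are from GENCODE on GRCm39, and figures were drawn with matplotlib 3.10.9. Some promoter motifs and 1 gene list are not reported here.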

Additional observations from a re-analysis of the deposited data

How the results depend on the processing

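The limits of these values are the spread between libraries, which was 1.01 log2 units (SD of the median member between replicates), and 3 libraries per group. No member was called in the 6 comparisons without covariate, except in ByJcl against Ajcl on Day 5. There DESeq2 called 1 (5.92% of all genes called) and edgeR called 2 without Ajcl Day 5 replicate 3 (4.68%). The range was 0 to 2 when single libraries were left out. The median log2 fold change of the members ranged, over single libraries left out, from -1.30 to -0.38 for the substrains at baseline and from -2.34 to -0.94 on Day 5, and for ADR from -0.35 to 0.83 in Ajcl, from -1.18 to 0.02 in ByJcl, from -0.47 to 0.22 averaged, and from -1.31 to -0.05 for the interaction. With the tubule covariate, baseline calls rose from 0 (0.114% of all genes called) to 1 (Slc22a8) with DESeq2 (0.554%) and to 1 with the replicate block (0.205%). Calls after ADR in Ajcl rose from 0 (0.536% of all genes called) to 2 with DESeq2 (2.75%). Their range over libraries left out was 0 to 1, with 1 without Ajcl Day 5 replicate 2 (1.45%). Calls after ADR in ByJcl went from 4 (9.52% of all genes called) to 7 with DESeq2 (15.2%) and to 9 with the replicate block (15.4%). Their range over libraries left out was 0 to 9. None was left without ByJcl Day 5 replicate 3 (6.91%), and 7 without ByJcl Day 5 replicate 1 (8.28%). Without Ajcl baseline replicate 2 (7.26%), ByJcl baseline replicate 1 (3.69%) or 3 (5.86%), 1 was left. Averaged calls ranged from 3 without Ajcl baseline replicate 2 (7.21% of all genes called) to 13 without Ajcl Day 5 replicate 1 (13.6%). Directions turned for no called value. Among the 2 highest and 2 lowest changes of each comparison, they turned for Lrp2 after ADR in Ajcl (0.21 with the replicate block, -0.53 to 0.83 over libraries left out), Slc7a13 in Ajcl (-1.01 to 0.23), G6pc in ByJcl (-0.23 to 1.54), and the interactions of Slc22a8 (-0.22 with the replicate block, -0.65 to 0.70) and G6pc (-0.23 with the replicate block, -0.90 to 1.19). Other members turned too: in Ajcl 27 of 31 were higher after ADR with all libraries and 6 without Ajcl Day 5 replicate 1. The cause was not tested. Whether replicate numbers pair the samples was not settled, since pairs with different numbers were not compared. Of 18 same-numbered pairs, 6 had a correlation of deviations over 0.1 (range -0.31 to 0.41). The block moved 2 of 18 main results, where a median had to shift by 1.01 log2 units to count as moved. Over all genes DESeq2 called 69 against 19 with edgeR at baseline, 926 against 72 on Day 5, 326 against 54 after ADR in Ajcl and 1999 against 1197 in ByJcl.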
